A study of Mus musculus with 12 samples.

Results

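Smooth muscle cells of the gut wall make a shared set of contractile and anchoring proteins, and 32 genes for such proteins were followed here in colon tumours of bone marrow chimeras. The 32 genes were taken by name, as a list of contractile, cytoskeletal, calcium-handling and regulatory genes of smooth muscle, out of 24062 genes in the count table. All 32 passed the filter on low counts that left 15060 genes for testing. In smooth muscle, calcium that enters through channels or leaves internal stores binds calmodulin and activates myosin light chain kinase, whose phosphorylation of the myosin light chain lets myosin pull on actin. Actin and myosin are anchored through dense bodies and desmin filaments to adhesion plaques in the membrane. Myocardin and serum response factor switch on many of these genes through a short DNA element called the CArG box. In the colon, smooth muscle forms the outer muscle layer and the thin muscularis mucosae, and it also lines blood vessels.

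The tumours came from Balb/c mice that were lethally irradiated, given bone marrow of their own or the other genotype and left for 8 weeks to reconstitute. All mice then received azoxymethane (AOM), a carcinogen that induces colon tumours, at 10 mg/kg once a week for 6 weeks. St2 is the receptor for interleukin 33, encoded by Il1rl1, and St2-/- mice lack it in every tissue. Groups are written as marrow => host. In WT => St2-/- (n = 3) the host lacked St2 and the marrow was wild type, and in St2-/- => WT (n = 3) the marrow lacked it and the host was wild type. Both are called mismatched below. In St2-/- => St2-/- (n = 3) marrow and host lacked St2, and in WT => WT (n = 3) neither did. These are called matched. Tumours were snap-frozen 13 or 14 weeks after the last AOM injection, and 11 mice were male and 1 was female (WT => St2-/- replicate 3). Irradiation leaves some resident immune cells of the host, and neither the extent of chimerism nor the exons missing from the St2-/- allele are stated in the sources. The labels call the 3 libraries of each group biological replicates, and p-values measure only the spread between these samples.

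RNA was sequenced as single-end reads of 50 bases, and gene counts summed to 10293818 to 12962496 per library. Values are given in CPM, counts scaled to a common library size with TMM factors. Il1rl1, the targeted gene, had 7.29 to 25.0 CPM in the 6 tumours of St2-/- hosts, against 36.5 to 275 CPM in the 6 of WT hosts, without overlap. The label numbers of WT hosts have 5 digits and those of St2-/- hosts have 3, and anything else these numbers stand for cannot be told apart from the host's genotype.

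Stretches of 6 promoters are printed because they hold the CArG box, the element bound by serum response factor, or a close form of it, in members that differed widely between tumours (Acta2, Myl9, Synm, Pdlim3) and in members that differed less (Cnn2, Vcl). The sequences are RefSeq promoters on GRCm38.p6, written 5′ to 3′ on the gene's strand, and capitals mark each box. A box was CC, then 6 bases of A or T, then GG; close forms with exactly 1 G or C among the 6 were also marked. Acta2, Synm and Pdlim3 hold the close form only, Cnn2 and Vcl the exact box, and Myl9 one of each. The element reads the same way on both strands.
Acta2, chr19:34255378-34255477, minus strand: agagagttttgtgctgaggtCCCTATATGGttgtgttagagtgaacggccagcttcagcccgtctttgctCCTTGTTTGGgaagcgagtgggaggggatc
Myl9, chr2:156775283-156775394, plus strand: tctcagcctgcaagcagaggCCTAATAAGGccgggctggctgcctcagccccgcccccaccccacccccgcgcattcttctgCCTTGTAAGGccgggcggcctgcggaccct
Synm, chr7:67759952-67759992, minus strand: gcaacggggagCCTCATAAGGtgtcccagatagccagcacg
Pdlim3, chr8:45885367-45885416, plus strand: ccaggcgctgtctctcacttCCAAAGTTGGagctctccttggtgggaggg
Cnn2, chr10:79988524-79988573, plus strand: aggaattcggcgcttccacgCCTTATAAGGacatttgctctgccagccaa
Vcl, chr14:20929151-20929200, plus strand: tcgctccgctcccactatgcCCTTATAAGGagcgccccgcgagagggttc
The first box began 84 bases before the annotated start in Acta2, 161 in Myl9, 239 in Synm, 100 in Pdlim3, 56 in Cnn2 and 227 in Vcl. Windows ran from 250 bases before to 50 bases after the start. Of the 32 genes, 27 matched the promoter table, with 35 windows. Myh11, Actg2, Tagln, Nexn and Myocd did not match. The box with no G or C in its core was in 6 of these windows (17.1%), in Cnn2, Fhl1, Ldb3, Myl9 and Vcl, against 1.63% of all 32851 windows. With 1 G or C allowed, 14 of 35 windows (40%) held a box, against 9.98% of all windows. Windows of 1 gene can overlap. Des and Cnn1, which differed 78.1-fold and 47.2-fold between tumours, held no box of either form in their windows. Neither did Tpm2, Lmod1, Pgm5 and Synpo2, which also differed widely. Of the genes with an exact box, Myl9 differed 14.0-fold between the highest and lowest tumour. The others differed less, with 2.54-fold for Fhl1, 2.53-fold for Cnn2, 2.43-fold for Ldb3 and 1.64-fold for Vcl.

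The tumours fell into 2 sets by their smooth muscle RNA. In 4 of 12 tumours, WT => St2-/- 2 and 3 and St2-/- => WT 1 and 2, 17 of the 32 members were all higher than in any of the other 8. These 4 were picked as the 4 highest of Myh11, 1 of the 32, so the split is drawn from the members' own values. Among the 17, the lowest of the 4 stood above the highest of the 8 by 1.05-fold for Fhl1 to 4.19-fold for Des. The summed CPM of the 32 genes was 2240, 7836 and 4311 in WT => St2-/- tumours 1, 2 and 3 and 6664, 4049 and 2639 in St2-/- => WT, against 2887, 2179 and 2588 in St2-/- => St2-/- and 1709, 2882 and 2520 in WT => WT. Each mismatched group therefore had 2 high tumours and 1 tumour within the range of the matched groups. WT => St2-/- 2 was the highest library for 25 of the 32 genes, and WT => WT 1 was the lowest for 16. Such counts were not made over all tested genes, so they do not set the members apart from other genes. All 4 high tumours were taken at 13 weeks, and the low tumour of each mismatched group was taken at 14 weeks. Of the matched tumours, WT => WT 1 and 2 and St2-/- => St2-/- 3 were taken at 13 weeks and were low. In bulk tissue, fewer cells of a type and less RNA per cell cannot be told apart.

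**Figure D1:**
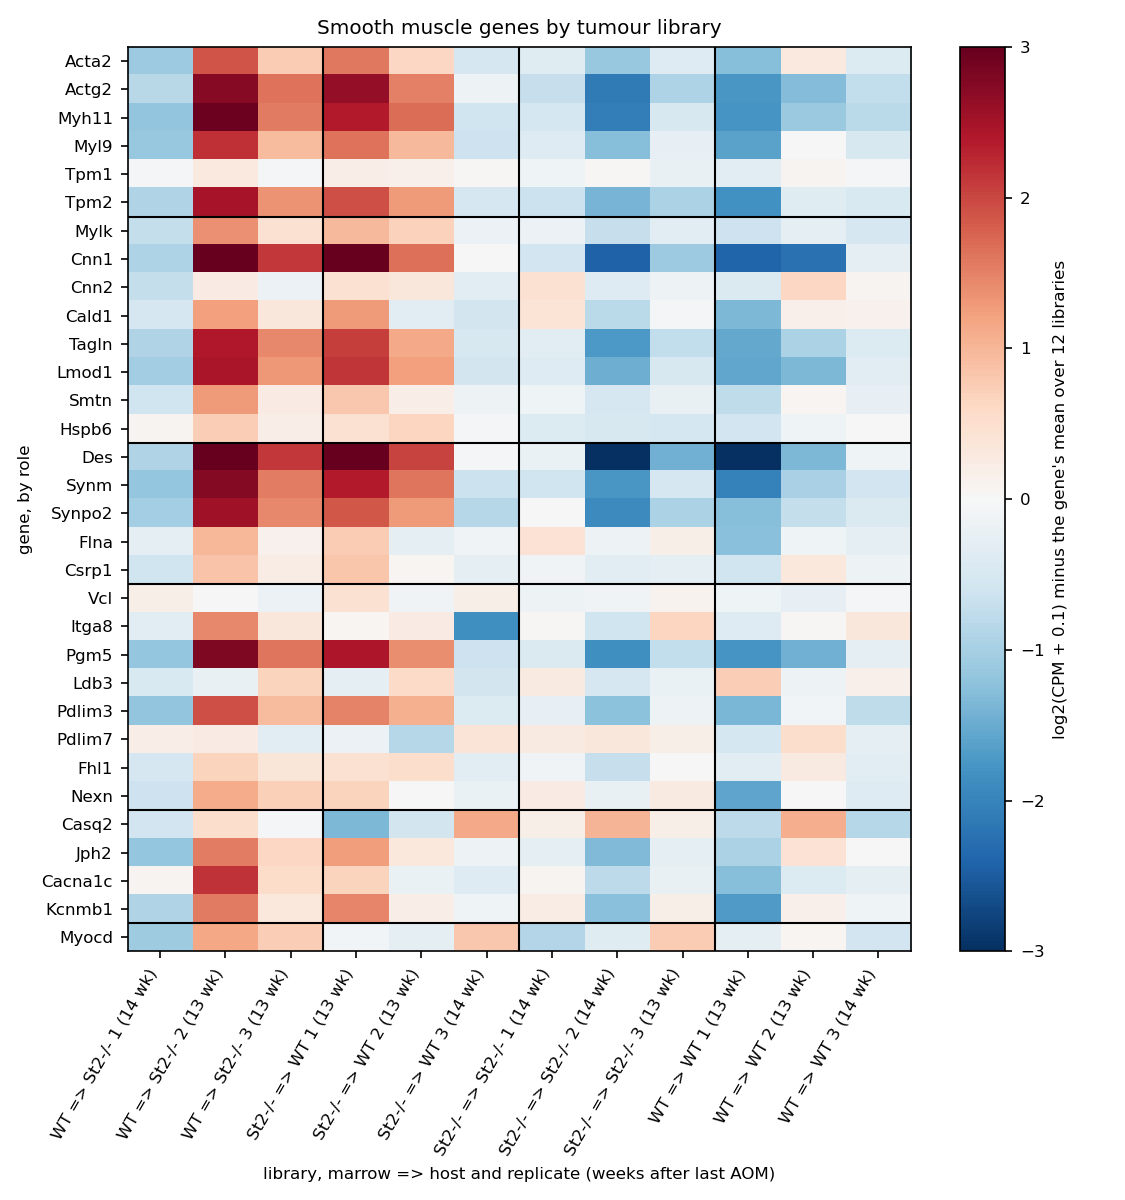
Colour gives log2(CPM + 0.1) minus the mean of each gene over 12 libraries, and stops at 3 in either direction. Rows are the 32 genes by role, and columns are the libraries with their weeks after AOM. Most rows are red in WT => St2-/- 2 and 3 and St2-/- => WT 1 and 2, while rows such as Vcl, Ldb3, Pdlim7 and Casq2 do not follow that pattern.

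Members of the thin and thick filaments, the sliding machinery itself, included genes that differed widely between tumours. Myh11 (chr16:14194535-14291372, minus strand, GRCm38), the smooth muscle myosin heavy chain, had 36.2, 628 and 240.4 CPM in WT => St2-/- tumours 1, 2 and 3 and 424, 262 and 54.5 CPM in St2-/- => WT tumours 1, 2 and 3, against 56.7, 19.5 and 58.4 CPM in St2-/- => St2-/- and 24.1, 37.7 and 46.8 CPM in WT => WT. Its 4 high tumours held at least 240.4 CPM and the other 8 at most 58.4 CPM. Actg2 (chr6:83512905-83536265, minus strand), the gamma actin of enteric smooth muscle, had 37.0, 443 and 206 CPM in WT => St2-/- tumours 1, 2 and 3 and 412, 188 and 59.2 CPM in St2-/- => WT tumours 1, 2 and 3, against 41.0, 15.2 and 34.8 CPM in St2-/- => St2-/- and 19.8, 27.0 and 39.5 CPM in WT => WT. It showed the same 4 high tumours, with WT => St2-/- 1 inside the matched range and St2-/- => WT 3 above it. Acta2 (chr19:34241090-34255590, minus strand), the alpha actin of vascular and other smooth muscle and of myofibroblasts, had 99.3, 783 and 355 CPM in WT => St2-/- tumours 1, 2 and 3 and 628, 324 and 148 CPM in St2-/- => WT tumours 1, 2 and 3, against 164, 94.9 and 160.2 CPM in St2-/- => St2-/- and 86.8, 257 and 158 CPM in WT => WT. The same 4 tumours were highest, but WT => WT 2 came within 1.26-fold of the lowest of them. Myl9, the regulatory light chain, had 32.8 to 329.7 CPM in mismatched tumours and 23.6 to 72.0 CPM in matched tumours, and Tpm2, the beta tropomyosin, had 36.0 to 371 CPM in mismatched tumours and 19.1 to 52.2 CPM in matched tumours. Tpm1, the alpha tropomyosin that many cell types make, had 608, 767 and 611 CPM in WT => St2-/- tumours 1, 2 and 3 and 722, 698 and 642 CPM in St2-/- => WT tumours 1, 2 and 3, against 576, 645 and 539 CPM in St2-/- => St2-/- and 500.3, 658 and 597 CPM in WT => WT. It differed only 1.53-fold between tumours, and its groups overlapped. The count table sets reads that align at several places apart from the genes, so levels of actins and tropomyosins, which resemble each other, are less certain.

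**Figure D2:**
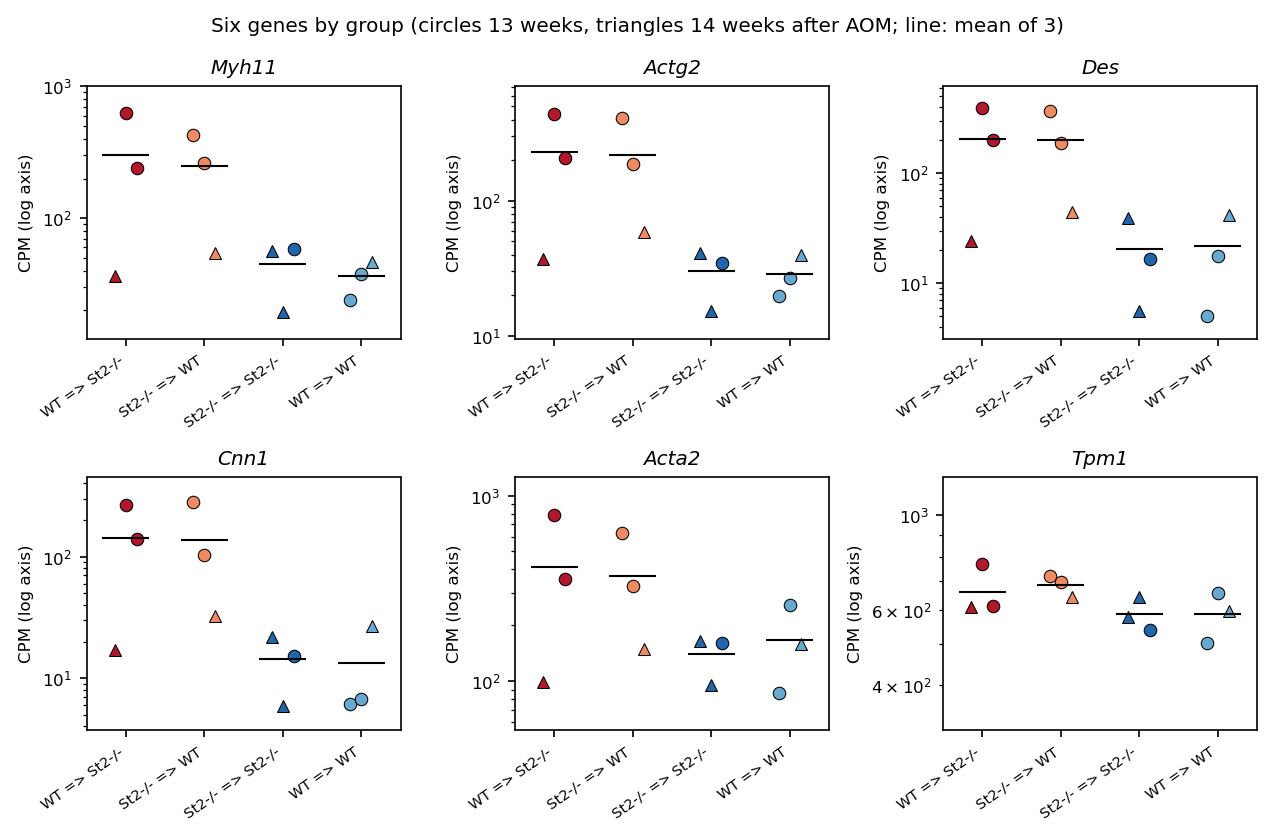
CPM on log axes of 6 genes by group, with 1 point a tumour (circles 13 weeks, triangles 14 weeks after AOM) and a line at the mean of 3. For Myh11, Actg2, Des and Cnn1 the 4 circles of the mismatched groups lie above all matched tumours, and for Tpm1 the groups overlap.

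Most regulators of the filaments were highest in the same 4 tumours, though by unlike margins. Cnn1 (chr9:22099216-22109630, plus strand), the basic calponin that binds actin and slows myosin, had 17.1, 268 and 141 CPM in WT => St2-/- tumours 1, 2 and 3 and 280, 103 and 32.3 CPM in St2-/- => WT tumours 1, 2 and 3, against 21.8, 5.93 and 15.2 CPM in St2-/- => St2-/- and 6.10, 6.76 and 26.9 CPM in WT => WT. The 4 high tumours stood apart, and its highest CPM was 47.2 times its lowest. Tagln (chr9:45929619-45936058, minus strand), or SM22, an early marker of smooth muscle that binds actin, had 77.9, 763 and 396 CPM in WT => St2-/- tumours 1, 2 and 3 and 613, 318 and 104 CPM in St2-/- => WT tumours 1, 2 and 3, against 116, 44.2 and 86.4 CPM in St2-/- => St2-/- and 50.3, 74.9 and 109 CPM in WT => WT. The same 4 tumours were highest by 2.75-fold over the next. Of its exonic bases, 67.9% are overlapped by genes on the opposite strand (Pcsk7 and Gm48529), and since the strand setting of the counting is not known its level is less certain. Lmod1, the leiomodin that starts actin filaments, had 2.88 to 33.6 CPM in mismatched tumours and 1.98 to 4.86 CPM in matched tumours. Mylk, the myosin light chain kinase, had 66.2 to 282 CPM in mismatched tumours and 66.9 to 96.7 CPM in matched tumours, a narrower spread of 4.26-fold. Smtn, or smoothelin, had 36.4 to 135 CPM in mismatched tumours and 32.8 to 57.5 CPM in matched tumours. Hspb6, a small heat shock protein linked to relaxation, had 6.68 to 11.7 CPM in mismatched tumours and 4.64 to 6.92 CPM in matched tumours. The lowest of the 4 high tumours stood above the next tumour by 1.55-fold for Mylk, 1.10-fold for Smtn and 1.07-fold for Hspb6. For Cnn1 this margin was 3.18-fold. Cald1 (caldesmon) and Cnn2, the calponin of non-muscle cells, did not share the 4 top tumours. Cald1 had 93.1 to 328 CPM in mismatched tumours and 53.3 to 178 CPM in matched tumours, and Cnn2 had 40.9 to 92.5 CPM in mismatched tumours and 49.4 to 103 CPM in matched tumours.

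Intermediate filaments and crosslinkers held the member with the widest spread. Des (chr1:75360329-75368579, plus strand), the desmin of muscle intermediate filaments, had 24.2, 389 and 199.6 CPM in WT => St2-/- tumours 1, 2 and 3 and 369, 187 and 44.7 CPM in St2-/- => WT tumours 1, 2 and 3, against 39.6, 5.62 and 16.6 CPM in St2-/- => St2-/- and 4.98, 17.8 and 42.0 CPM in WT => WT. Its highest CPM was 78.1 times its lowest, and the 4 high tumours held at least 187 CPM against at most 44.7 CPM in the other 8. Synm, the synemin that pairs with desmin, had 6.18 to 94.6 CPM in mismatched tumours and 3.35 to 9.82 CPM in matched tumours, and Synpo2, or myopodin, had 6.01 to 71.7 CPM in mismatched tumours and 3.17 to 12.3 CPM in matched tumours. Flna, the filamin that nearly every cell makes, had 355 to 862 CPM in mismatched tumours and 184 to 585 CPM in matched tumours. Csrp1, a LIM protein of the cytoskeleton, had 150.5 to 411 CPM in mismatched tumours and 148 to 284 CPM in matched tumours. Flna and Csrp1 were highest in WT => St2-/- 2 as well, but their mismatched and matched tumours overlapped.

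Among adhesion and dense-body proteins, Pgm5, or aciculin, followed the contractile genes and Vcl, or vinculin, did not. Pgm5 had 4.40, 69.4 and 30.4 CPM in WT => St2-/- tumours 1, 2 and 3 and 53.9, 26.3 and 6.42 CPM in St2-/- => WT tumours 1, 2 and 3, against 7.34, 2.69 and 5.88 CPM in St2-/- => St2-/- and 2.83, 3.58 and 8.12 CPM in WT => WT. Its 4 high tumours lay 3.24-fold or more above the rest. Vcl had 206, 185 and 161 CPM in WT => St2-/- tumours 1, 2 and 3 and 252, 171 and 207 CPM in St2-/- => WT tumours 1, 2 and 3, against 165, 169 and 198 CPM in St2-/- => St2-/- and 168, 153 and 178 CPM in WT => WT. Its groups overlapped, it differed 1.64-fold in all, and 25.5% of its exonic bases are shared with Ap3m1 on the opposite strand. Pdlim3, a PDZ and LIM protein of the actin anchor, had 5.33 to 47.0 CPM in mismatched tumours and 4.72 to 11.7 CPM in matched tumours, and Fhl1, another LIM protein, had 87.3 to 197 CPM in mismatched tumours and 77.5 to 151 CPM in matched tumours. Nexn, or nexilin, had 3.98 to 13.5 CPM in mismatched tumours and 1.98 to 7.42 CPM in matched tumours. Ldb3, best known from striated muscle Z-discs, had 12.5 to 29.4 CPM in mismatched tumours and 12.8 to 30.4 CPM in matched tumours, and Pdlim7 had 79.6 to 186 CPM in mismatched tumours and 99.7 to 206 CPM in matched tumours. Itga8, an integrin of smooth muscle and mesenchymal cells, was low, with 0.347 to 4.26 CPM in mismatched tumours and 0.950 to 2.40 CPM in matched tumours.

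Calcium handling and transcription members were expressed at low levels. Jph2, which couples membrane and calcium store, had 3.81 to 25.3 CPM in mismatched tumours and 3.40 to 11.7 CPM in matched tumours, and Kcnmb1, the beta subunit of the BK potassium channel, had 2.45 to 13.9 CPM in mismatched tumours and 1.37 to 5.43 CPM in matched tumours. Cacna1c, the pore of the L-type calcium channel, had 12.02, 51.4 and 16.5 CPM in WT => St2-/- tumours 1, 2 and 3 and 18.2, 9.86 and 8.67 CPM in St2-/- => WT tumours 1, 2 and 3, against 12, 6.49 and 9.74 CPM in St2-/- => St2-/- and 4.64, 8.502 and 9.31 CPM in WT => WT. Its high value was in 1 tumour, WT => St2-/- 2, while St2-/- => WT 2 lay within the matched range. Casq2, a calcium buffer of the store, had 0.259 to 1.91 CPM in mismatched tumours and 0.398 to 1.84 CPM in matched tumours, and Myocd, myocardin itself, had 0.254 to 1.56 CPM in mismatched tumours and 0.306 to 1.16 CPM in matched tumours. Their mismatched and matched tumours overlapped.

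Per kilobase of exon, the mean CPM over 12 tumours was highest for Acta2 (124), Csrp1 (122), Tagln (115), Tpm1 (97.2), Myl9 (86.3) and Actg2 (81.5). Flna (49.6), Tpm2 (36.4) and Fhl1 (35.1) came next. Des (29.7) and Cnn1 (28.1) lay close to each other, and Myh11 stood at 20.7. The lowest were Casq2 (0.349), Itga8 (0.232) and Myocd (0.115). Of the 31 pairs of neighbours in this order of 32 genes, 31 differed by less than the larger SD of the pair over 12 tumours. Tagln and Tpm1 were neighbours in level per kilobase, while Tagln differed 17.3-fold between tumours and Tpm1 1.53-fold.

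**Figure D3:**
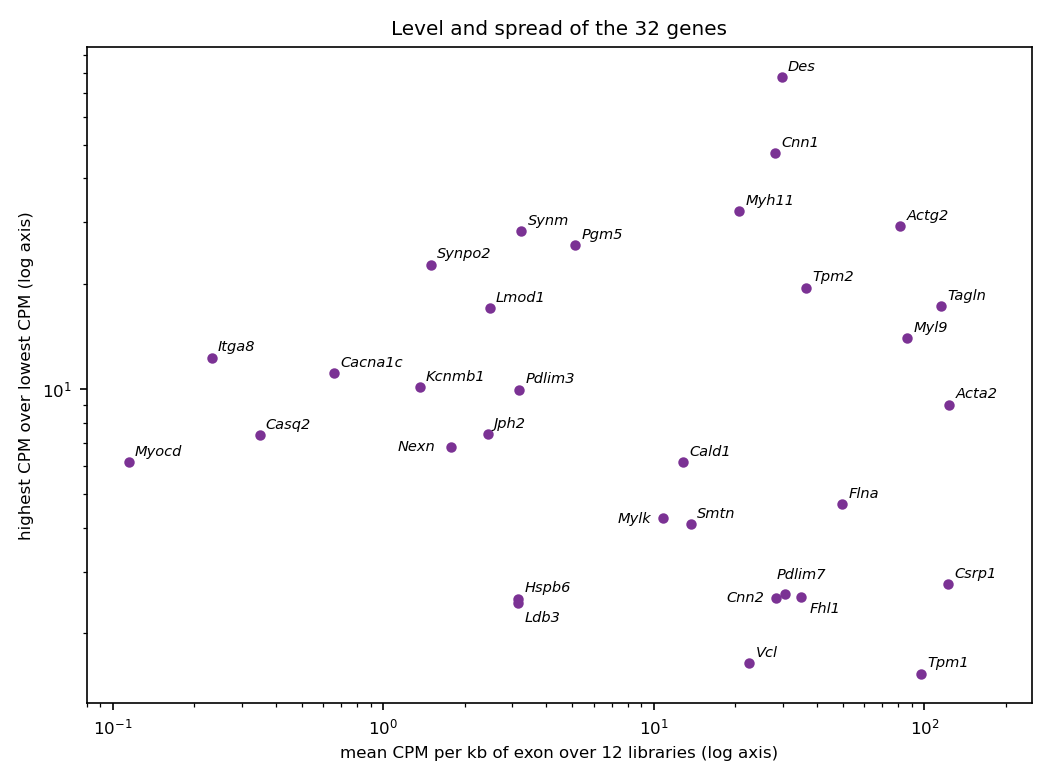
Each point is 1 of the 32 genes, with its mean CPM per kilobase of exon over 12 tumours and the ratio of its highest to its lowest CPM, both on log axes. Des (78.1) and Cnn1 (47.2) are at the top, and Tpm1 and Vcl lie lowest.

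The mismatched groups were set against the matched groups, 6 tumours against 6, which is the test of whether the effect of St2 in the host depends on St2 in the marrow. The contrast is the mean of WT => St2-/- and St2-/- => WT minus the mean of St2-/- => St2-/- and WT => WT. Of the 32 genes, 28 had a log2 fold change above 0, with a median of 0.95, against a median of 0.0049 over all 15060 genes, of which 51% were above 0. No member passed an adjusted p under 0.05 in the edgeR quasi-likelihood test (0 of 32, against 0% of all genes), and the lowest adjusted p of a member was 0.539. Without adjustment, 17 members had p under 0.05 and all 17 were higher in mismatched tumours, against 4.52% of all genes higher and 3.07% lower. Many members share their highest tumours, so these 17 are not separate observations. The members were also chosen with earlier results of these data known. DESeq2 called 10 of 32 members, all higher, against 0.619% of all genes: Actg2, Myh11, Tpm2, Cnn1, Tagln, Lmod1, Des, Synm, Synpo2 and Pgm5. limma-voom with quality weights called 0 of 32, against 0.0266% of all genes. Of the 3 tools, DESeq2 alone put members past the threshold.

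In edgeR, the log2 fold change in this contrast was 3.34 (SE 0.75, adjusted p = 0.539) for Cnn1, 3.26 (SE 0.81, adjusted p = 0.539) for Des, 2.92 (SE 0.61, adjusted p = 0.539) for Actg2 and 2.76 (SE 0.66, adjusted p = 0.539) for Myh11. Pgm5 at 2.64 (SE 0.67), Synm at 2.63 (SE 0.65), Lmod1 at 2.26 (SE 0.60), Tagln at 2.24 (SE 0.56), Tpm2 at 2.23 (SE 0.55) and Synpo2 at 2.13 (SE 0.61) lay between 2 and 3 on the log2 scale. Myl9 stood at 1.63 (SE 0.54), Pdlim3 at 1.54 (SE 0.50), Acta2 at 1.35 (SE 0.49), Cacna1c at 1.10 (SE 0.38) and Mylk at 1.02 (SE 0.31). Nearer 0 were Tpm1 at 0.20 (SE 0.11), Vcl at 0.19 (SE 0.11) and Itga8 at 0.14 (SE 0.45). The 4 members below 0 were Cnn2 at -0.069 (SE 0.24), Pdlim7 at -0.16 (SE 0.23), Ldb3 at -0.050 (SE 0.28) and Casq2 at -0.24 (SE 0.56). The other 10 members lay between 0.42 for Fhl1 and 0.97 for Jph2.

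**Figure D4:**
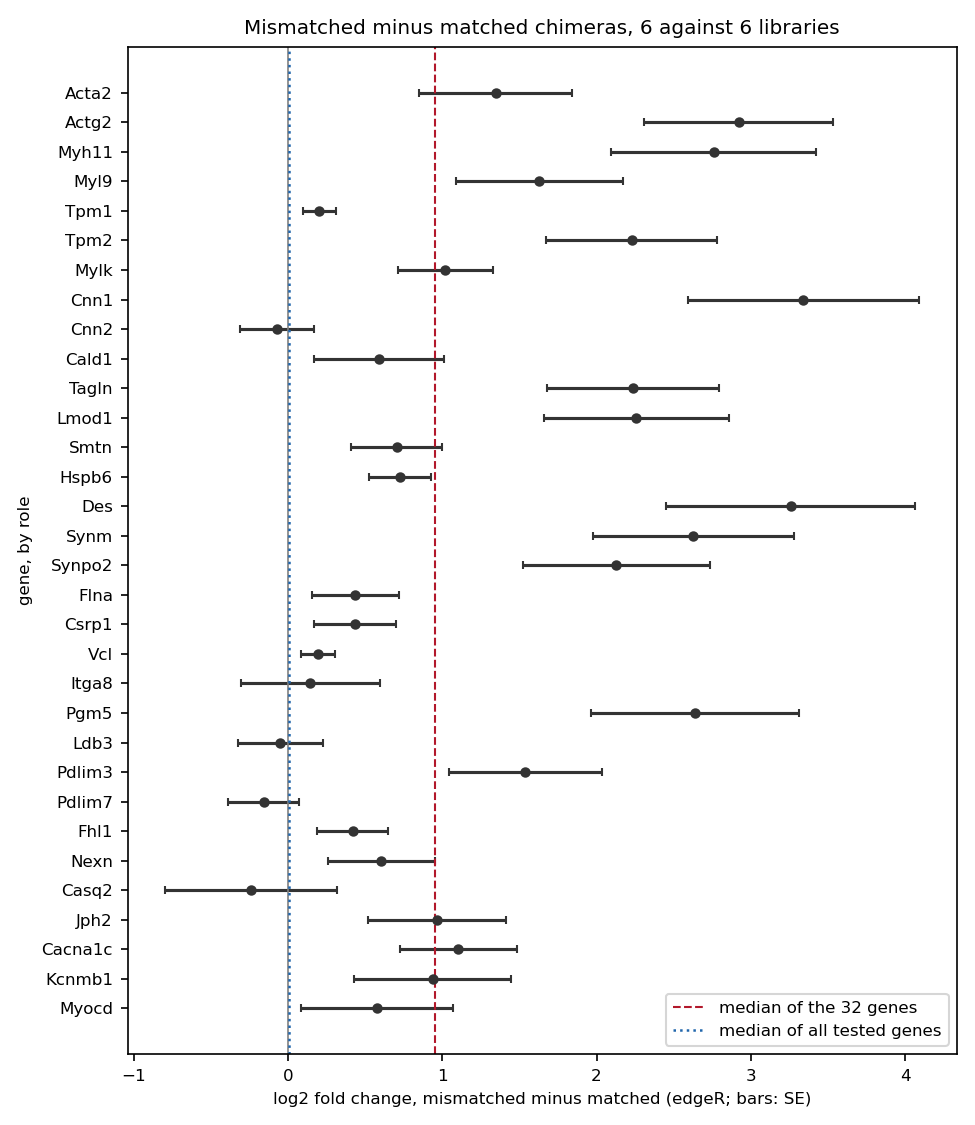
Points are the edgeR log2 fold change of each of the 32 genes, mismatched minus matched, with bars of 1 SE; the dashed line is the median of the 32 genes and the dotted line that of all tested genes. Values run from -0.24 for Casq2 to 3.34 for Cnn1, and none had an adjusted p under 0.05.

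Time of collection moved with this result. In the 7 tumours taken at 13 weeks, 4 mismatched and 3 matched, the median log2 fold change of the 32 genes was 1.18, with 30 above 0. In the 5 tumours taken at 14 weeks (2 mismatched, 3 matched), the median was -0.078, with 13 of 32 above 0. Myh11 had a log2 fold change of 3.17 in the 13-week tumours and 0.083 in the 14-week tumours, and Acta2 1.63 and -0.23. Whether the contrast itself differs between weeks was not tested. With weeks after AOM as a covariate, the median over the 32 genes was 0.68 and Myh11 stood at 2.09, with no member called. The fits within 1 week were chosen after the data had been seen. Without WT => St2-/- replicate 2, the highest tumour, the median fell to 0.61, against 0.95 with all tumours.

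The same split can be read from each change of a single genotype; these comparisons share groups, so their values stand side by side and do not support each other. When St2 was lost in the host under WT marrow (WT => St2-/- minus WT => WT), 29 of 32 members were above 0 with a median of 1.06 (0.0084 over all genes). edgeR called 0 of 32, against 0.159% of all genes. Without adjustment 15 were higher, against 8.36% of all genes. DESeq2 called 9 of 32 (4.96% of all genes) and limma-voom 0 (2% of all genes). The median was 0.43 without WT => St2-/- replicate 2 and -0.44 in the 14-week tumours alone. When St2 was lost in the host under St2-/- marrow (St2-/- => St2-/- minus St2-/- => WT), 29 of 32 were below 0 with a median of -0.85 (0.0031 over all genes). edgeR again called 0, against 0.0598% of all genes, and 11 were lower without adjustment, against 7.36%. DESeq2 called Actg2 alone (1.74% of all genes) and limma-voom 8 of 32 (12.9% of all genes). The median was -0.54 without St2-/- => WT replicate 1 and -0.22 at 14 weeks.

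Loss of St2 in the marrow of WT hosts (St2-/- => WT minus WT => WT) gave 29 of 32 above 0 with a median of 0.73 (0.014 over all genes), and 12 higher without adjustment, against 2.92% of all genes. edgeR, DESeq2 and limma-voom each called 0 of 32 and 0% of all genes. The median was 0.48 without WT => WT replicate 1, 0.48 without St2-/- => WT replicate 1 and -0.019 at 14 weeks. In St2-/- hosts (St2-/- => St2-/- minus WT => St2-/-), 29 of 32 were below 0 with a median of -0.93 (-0.0094 over all genes), and 15 were lower without adjustment, against 2.31% of all genes. edgeR called 0 (0% of all genes), limma-voom 0 (0.0266%), and DESeq2 0 of the 30 members it gave an adjusted p (0.12% of all genes). Without WT => St2-/- replicate 2 the median was -0.46, and at 14 weeks it was 0.25. For Myh11 the edgeR log2 fold change was 3.06 (SE 0.95, adjusted p = 0.181) in WT => St2-/- minus WT => WT, and 2.77 (SE 0.94, adjusted p = 0.797) in St2-/- => WT minus WT => WT. It was -2.46 (SE 0.93, adjusted p = 0.377) in St2-/- => St2-/- minus St2-/- => WT, and -2.75 (SE 0.94, adjusted p = 0.995) in St2-/- => St2-/- minus WT => St2-/-.

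Averaged over the other compartment, neither the host nor the marrow contrast put a member past a threshold. For St2-/- hosts minus WT hosts, 22 of 32 members were above 0 with a median of 0.11 (-0.0015 over all genes) and none had an unadjusted p under 0.05 in either direction, against 9.81% of all genes higher and 10.8% lower. edgeR called 0 of 32 (1.37% of all genes), DESeq2 0 (7.96%) and limma-voom 0 (12.2%). This median had no stable sign: leaving out 1 tumour gave -0.25 (without WT => St2-/- replicate 2) to 0.36 (without St2-/- => WT replicate 1). It was -0.050 without St2-/- => WT replicate 3, -0.17 by limma-voom, 0.34 at 13 weeks and -0.23 at 14 weeks. For St2-/- marrow minus WT marrow, 15 of 32 were above 0 with a median of -0.014 (-0.0036 over all genes), with none at an unadjusted p under 0.05, against 1.27% of all genes higher and 1.48% lower, and all 3 tools called 0 (0% of all genes). Leaving out 1 tumour moved this median between -0.28 (without St2-/- => WT replicate 1) and 0.25 (without WT => St2-/- replicate 2). For loss in both (St2-/- => St2-/- minus WT => WT), 21 of 32 were above 0 with a median of 0.088 (-0.014 over all genes) and none had an unadjusted p under 0.05, against 6.45% of all genes higher and 7.28% lower. There edgeR called 0 (0.0266% of all genes), DESeq2 0 of 29 (3.56%) and limma-voom 0 (11.2%). Leaving out 1 tumour moved this median between -0.13 (without WT => WT replicate 1) and 0.37 (without St2-/- => St2-/- replicate 2), and it was -0.21 at 14 weeks. A p above the threshold does not show that these groups were alike: the SE of Myh11 in the host contrast was 0.62 on the log2 scale, beside a log2 fold change of 0.30.

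How tightly members moved together was asked within the 8 lower tumours, because the 12 tumours fall into 2 sets and a pooled correlation would mix them. Over the 8, the median Pearson r of log2 CPM over all 496 pairs of members was 0.50, from -0.76 to 0.98, and 70 pairs were below 0. In an exact permutation test over all 40320 orders of the 8 tumours, two-sided, 40 pairs had an adjusted p under 0.05 for r and 4 pairs for Spearman's rho. Myh11 and Synm had r = 0.95 and rho = 0.90 (exact permutation p = 0.00144 and 0.00456, adjusted over 496 pairs 0.0297 and 0.0943), and r = 0.92 without the 2 tumours farthest from the median of the first gene. Myh11 and Tagln had r = 0.94 and rho = 0.81 (exact permutation p = 0.00191 and 0.0218, adjusted over 496 pairs 0.0338 and 0.171), and r = 0.70 without the 2 tumours farthest from the median of the first gene. Myh11 and Tpm1 had r = -0.014 and rho = -0.31 (exact permutation p = 0.973 and 0.462, adjusted over 496 pairs 0.987 and 0.668), and r = -0.59 without the 2 tumours farthest from the median of the first gene. The 8 tumours were left after the 4 highest for Myh11, itself a member, were set aside once the data had been seen. The cut thus used values of the genes that were correlated, and the p-values do not allow for it. The 8 tumours come from all 4 groups and both weeks, and they share the library scaling. The permutation treats them as exchangeable across groups. Pairs of all tested genes were not counted in this way. Whether members moved together more tightly than other genes therefore cannot be read from these values.

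Ratios between members differed in how much they varied over the 12 tumours. Synm CPM per Myh11 CPM lay between 0.139 and 0.211 (1.52-fold), while Myh11 itself differed 32.3-fold. Actg2 per Myh11 lay between 0.596 and 1.09 (1.82-fold), Pgm5 per Myh11 between 0.0949 and 0.173 (1.83-fold) and Tagln per Myh11 between 1.21 and 2.32 (1.91-fold). Lmod1 per Myh11 differed 2.05-fold and Tpm2 per Myh11 2.34-fold. Cnn1 per Myh11 was looser, between 0.18 and 0.66 (3.68-fold), as was Des per Myh11, between 0.206 and 0.896 (4.34-fold). Acta2 per Myh11 was the loosest of these, between 1.24 and 6.81 (5.50-fold), lowest in St2-/- => WT 2 and highest in WT => WT 2. Actg2 per Acta2, the enteric actin against the actin shared with vessels and myofibroblasts, lay between 0.105 and 0.656 (6.25-fold), highest in St2-/- => WT 1 and lowest in WT => WT 2. WT => WT 2 was also the tumour with the highest fibroblast sum. Its activated fibroblast and myofibroblast sum was 197 CPM, inside the range of 69.1 to 386 CPM over the 12 tumours. A link between these sums and the ratio was not tested.

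The 10 genes outside the list whose log2 CPM was most like the mean standardized log2 CPM of the 32 genes were Tns1 (0.98), Flnc (0.98), Rasl12 (0.97), Mpdz (0.97), Ndn (0.97), Lims2 (0.97), Tro (0.96), Cntfr (0.96), Tacr2 (0.96) and Tacc1 (0.96), with Pearson r over 12 tumours. These values are a description over tumours that fall into 2 sets, and over the 8 lower tumours r was 0.80 to 0.94. Tns1, a tensin of adhesion plaques, had 40.2, 205 and 107 CPM in WT => St2-/- tumours 1, 2 and 3 and 175, 90.5 and 49.1 CPM in St2-/- => WT tumours 1, 2 and 3, against 39.4, 28.1 and 50.1 CPM in St2-/- => St2-/- and 20.4, 59.4 and 55.2 CPM in WT => WT. It shared the 4 high tumours with the contractile genes. Tacr2, a receptor for neurokinin A on gut muscle, had 0, 3.30 and 0.791 CPM in WT => St2-/- tumours 1, 2 and 3 and 2.24, 1.11 and 0.260 CPM in St2-/- => WT tumours 1, 2 and 3, against 0.153, 0 and 0.0773 CPM in St2-/- => St2-/- and 0, 0.0966 and 0.0796 CPM in WT => WT. It was highest in the same 4 tumours, and was at 0 in 3 of the 12.

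Other genes of muscle function were taken as lists, to be read against all genes tested, of which 51% were above 0 and 4.52% higher at an unadjusted p under 0.05. In adhesion and cytoskeleton of muscle, 21 of 24 tested genes were above 0 in mismatched minus matched, with a median of 0.19, and 6 were higher at an unadjusted p under 0.05. Itga7, the laminin-binding integrin of muscle, had a log2 fold change of 1.18 (SE 0.30, adjusted p = 0.539). In relaxation signalling, 9 of 9 were above 0 with a median of 0.75, and 3 had an unadjusted p under 0.05: Gucy1a3, a subunit of the nitric oxide receptor, at 1.29 (SE 0.39, adjusted p = 0.539), Prkg1, the cyclic GMP kinase, at 1.63 (SE 0.57, adjusted p = 0.559), and Pln, or phospholamban, which was at 0 in 3 of the 6 matched tumours. In calcium stores and channels, 7 of 10 were above 0 with a median of 0.60 and 4 at an unadjusted p under 0.05, and of the release channels of the calcium store, Ryr2 had 2.82 (SE 0.78, adjusted p = 0.539) and Ryr3 2.18 (SE 0.56, adjusted p = 0.539). In contraction signalling, 16 of 19 were above 0 with a median of 0.27 and 3 at an unadjusted p under 0.05. No gene of these lists was called by edgeR.

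The transcription factors upstream of the contractile genes did not share one pattern. Of 13 tested, 10 were above 0 in mismatched minus matched with a median of 0.085, and 2 were higher at an unadjusted p under 0.05, against 4.52% of all genes. Srf, serum response factor, had 71.8, 87.5 and 61.7 CPM in WT => St2-/- tumours 1, 2 and 3 and 76.9, 78.5 and 90.4 CPM in St2-/- => WT tumours 1, 2 and 3, against 78.4, 80.3 and 73.7 CPM in St2-/- => St2-/- and 107, 83.5 and 80.3 CPM in WT => WT. Its 4 groups overlapped, and its log2 fold change was -0.11 (SE 0.11, adjusted p = 0.828). Hand1, a factor of gut mesenchyme, had 0.0846, 3.83 and 1.32 CPM in WT => St2-/- tumours 1, 2 and 3 and 2.41, 1.63 and 0.260 CPM in St2-/- => WT tumours 1, 2 and 3, against 0.382, 0 and 0 CPM in St2-/- => St2-/- and 0, 0 and 0.398 CPM in WT => WT. It was highest in the same 4 tumours as Myh11. Prdm6, the other of the 2, was at 0 in 5 of 6 matched tumours and at 1.56 CPM in WT => St2-/- 2.

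Markers of other cell types were counted beside these results. Of the enteric neuron and glia list, which marks the nerve plexus that lies between the muscle layers, 15 of 15 tested genes were above 0 in mismatched minus matched, against 51% of all genes, with a median of 2.39. Of these, 13 had an unadjusted p under 0.05, against 4.52% of all genes higher, and 0 were called. Tubb3, a neuronal tubulin, had 1.10, 19.9 and 5.89 CPM in WT => St2-/- tumours 1, 2 and 3 and 20.2, 6.51 and 1.91 CPM in St2-/- => WT tumours 1, 2 and 3, against 2.14, 0.712 and 1.24 CPM in St2-/- => St2-/- and 0.601, 0.676 and 1.99 CPM in WT => WT. Gfap, a glial filament, had 0.339, 6.87 and 5.45 CPM in WT => St2-/- tumours 1, 2 and 3 and 6.55, 2.31 and 0.520 CPM in St2-/- => WT tumours 1, 2 and 3, against 0.611, 0.158 and 0.464 CPM in St2-/- => St2-/- and 0, 0.193 and 0.478 CPM in WT => WT. Both were highest in the 4 tumours with high smooth muscle RNA. The list sum was 157 to 332 CPM in WT => St2-/- and 145 to 328 CPM in St2-/- => WT, against 100.4 to 141 CPM in St2-/- => St2-/- and 58.2 to 168 CPM in WT => WT, but 50.0% of it was Erbb3, which epithelium also makes and which was named after its values were seen. Sox10, a glial factor under 3 CPM in every tumour, stood at a log2 fold change of 3.96 (SE 0.93, adjusted p = 0.539). Stmn2, a neuronal protein, stood at 2.03 (SE 0.53, adjusted p = 0.539).

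Of the interstitial cells of Cajal list, 4 of 4 were above 0 with a median of 0.54, and Etv1, a factor of these pacemaker cells, had 1.36 (SE 0.46, adjusted p = 0.559). Kit, their growth factor receptor, had 21.0 to 55.2 CPM in mismatched tumours and 26.0 to 41.3 CPM in matched tumours, which overlap. Of the pericyte and vascular smooth muscle list, 8 of 10 were above 0 with a median of 0.41, and its sum was 186 to 402 CPM in WT => St2-/- and 108 to 289.8 CPM in St2-/- => WT, against 144 to 234 CPM in St2-/- => St2-/- and 64.1 to 275 CPM in WT => WT. Abcc9, a channel subunit of pericytes, had 1.81 (SE 0.64, adjusted p = 0.559). The fibroblast list had 3 of 9 above 0 with a median of -0.32, and its sum was 1390 to 2191 CPM in WT => St2-/- and 853 to 2059 CPM in St2-/- => WT, against 1137 to 2253 CPM in St2-/- => St2-/- and 951 to 4502 CPM in WT => WT. The activated fibroblast and myofibroblast list had 4 of 8 above 0 with a median of 0.16, and the endothelium list 4 of 8 with a median of 0.013. The leukocyte list had 2 of 10 above 0 with a median of -0.44, and 2 were lower at an unadjusted p under 0.05, against 3.07% of all genes.

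The epithelium list had 9 of 10 above 0 with a median of 0.15, and its sum was 6077 to 13909 CPM in WT => St2-/- and 13343 to 16185 CPM in St2-/- => WT, against 8652 to 11023 CPM in St2-/- => St2-/- and 11528 to 14684 CPM in WT => WT. It was lowest in WT => St2-/- 2, the tumour with the most smooth muscle RNA, while St2-/- => WT 2, also high in smooth muscle RNA, had the highest epithelial sum of all 12. The skeletal muscle list summed to 13.3 to 35.1 CPM in all, with Myh4 and Myod1 at 0 in every tumour. Cardiac muscle markers summed to 27.7 to 106 CPM, with 2 of 4 above 0 and a median of 0.086, and Myl7 made up 61.8% of that sum. Actc1 of the cardiac list was highest in the 4 tumours with high smooth muscle RNA, at 4.83 to 13.2 CPM against at most 3.73 CPM elsewhere. So was Ckm of the skeletal list, at 0.943 to 3.04 CPM against at most 0.434 CPM. The other tested genes of these 2 lists did not share those 4 tumours. The mesothelium list, which would mark the outer surface of the gut, had 2 of 2 tested genes above 0 with a median of 0.50. The adipocyte list had 2 of 2 with a median of 0.47. In both lists only 2 of 5 genes passed the filter on low counts. Msln made up 98.5% of the mesothelium sum and Fabp4 91.2% of the adipocyte sum. The mesothelium sum was highest, at 176 CPM, in St2-/- => St2-/- 2, a tumour low in smooth muscle RNA, and its groups overlapped. No marker of another cell type was called by edgeR. The part of each cell type in the smooth muscle values was not tested.

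**Figure D5:**
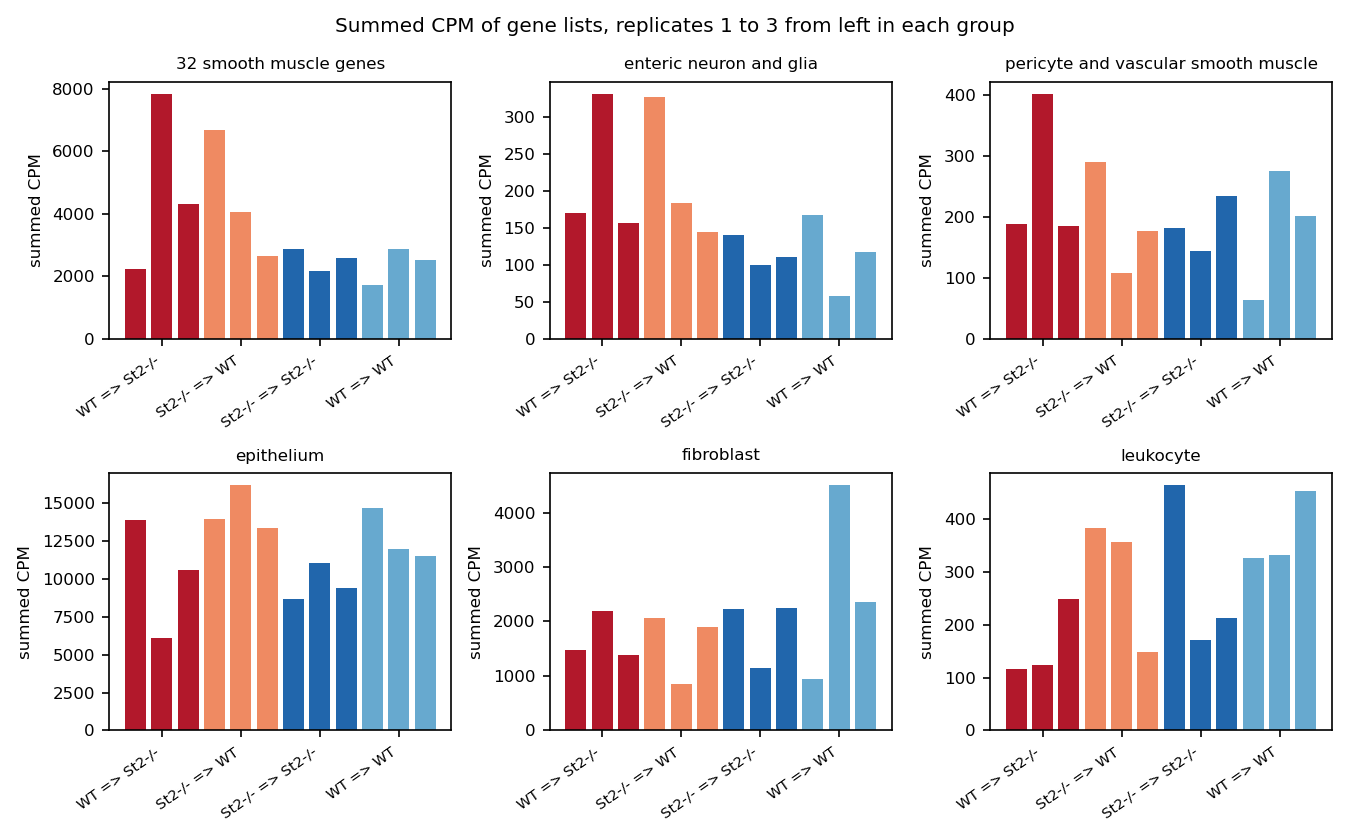
Bars are summed CPM of 6 gene lists in each tumour, replicates 1 to 3 from left in each group, with axes from 0. The 32 smooth muscle genes reach 7836 CPM in WT => St2-/- 2 and 6664 CPM in St2-/- => WT 1, the 2 tumours in which the enteric neuron and glia sum is also highest.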

How the data were processed

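RNA of 12 colon tumours was measured. TopHat and Bowtie2, with the genome GRCm38 (mm10), are named in the submitters' processing notes. Their versions, and the tool, annotation and strand setting behind the counting, are not given in the sources used here. What the authors deposited is 1 table of raw counts for 24062 genes, in which 0 columns lacked a sample. In it, 5 entries with no gene name took 49.8% to 59.6% of each library, with 36.7% to 48.9% not aligned uniquely, and were left out.

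Counts were tested with edgeR 4.0.16 in R 4.3.3 (filterByExpr with a minimum count of 10, TMM, robust quasi-likelihood fit of 4 group means over all 12 libraries, two-sided, Benjamini-Hochberg over 15060 genes, adjusted p under 0.05). The filter removed 9002 genes. The SE is the log2 fold change over the square root of F. Alternatives were DESeq2 1.42.0, its size factors, limma 3.58.1 voom with quality weights, no filter, CPM of 1 in 3 libraries, a covariate for weeks after AOM, a block for the replicate number, and each library left out; fits on the 13-week or 14-week libraries and correlations over 8 libraries were added after seeing the data. Simulated counts with known changes served as a test of the edgeR fit. Correlations used log2 CPM with a prior count of 2; tables were made in Python 3.11.15. Positions and exon lengths are from GENCODE on GRCm38. Adgre1 is listed as Emr1.

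The members and lists were chosen with earlier results of these data known. Named are all members, Il1rl1, up to 4 genes of a list with the smallest p, and the 10 genes most like the members. Raw counts of 10293818 to 12962496 per library limit precision. The SEs come from the quasi-likelihood fit, so they cover the spread between these tumours as well as counting error. They cover nothing beyond these samples.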

Additional observations from a re-analysis of the deposited data

How the results depend on the processing

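No member was called by edgeR under any of its alternatives (other size factors, filters, the block, weeks as a covariate, each tumour left out, 13 or 14 weeks alone). DESeq2 called 10 members in mismatched minus matched, 9 in WT => St2-/- minus WT => WT and 1 in St2-/- => St2-/- minus St2-/- => WT, where limma-voom called 8; the cause of the difference between tools was not tested. The median log2 fold change of the 32 genes in mismatched minus matched was 0.61 without WT => St2-/- replicate 2 and 1.16 without WT => St2-/- replicate 1, the 2 ends of leaving out each tumour in turn. The medians of the host, marrow and both-loss contrasts, all near 0, turned sign with single tumours left out. Signs of single members were followed for all 32 genes in mismatched minus matched only. In each change of a single genotype they were followed for Acta2, Actg2, Myh11, Des, Cnn1 and Tagln. The host, marrow and both-loss contrasts were followed by their medians, not by single members. In mismatched minus matched, outside the 14-week fit, signs turned only for 5 members: Cnn2, Itga8, Ldb3, Pdlim7 and Casq2. Leaving out 1 tumour gave -0.20 to 0.083 for Cnn2, -0.18 to 0.36 for Itga8, -0.26 to 0.087 for Ldb3, -0.33 to 0.027 for Pdlim7 and -0.83 to 0.29 for Casq2. limma-voom gave 0.032 for Cnn2, -0.18 for Itga8 and 0.090 for Ldb3, weeks as a covariate -0.14 for Itga8, and the 13-week tumours alone 0.20 for Cnn2 and 0.16 for Ldb3. The 14-week tumours alone, 5 libraries with 1 residual degree of freedom, in which the lone tumour of 3 groups is assumed to vary like the St2-/- => St2-/- pair, turned the most signs. In mismatched minus matched they gave Acta2 -0.23, Myl9 -0.25, Cald1 -0.54, Tagln -0.039, Lmod1 -0.23, Smtn -0.098, Synm -0.077, Synpo2 -0.39, Flna -0.14, Csrp1 -0.24, Itga8 -1.24, Pgm5 -0.25, Pdlim3 -0.079, Pdlim7 0.27, Fhl1 -0.076, Nexn -0.23, Casq2 0.44, Jph2 -0.29 and Kcnmb1 -0.29. In WT => St2-/- minus WT => WT they gave Acta2 -0.64, Actg2 -0.070, Myh11 -0.34, Des -0.77, Cnn1 -0.63 and Tagln -0.46. In St2-/- => WT minus WT => WT they gave Acta2 -0.082 and Tagln -0.052, and in St2-/- => St2-/- minus WT => St2-/- Acta2 0.37, Myh11 0.061 and Tagln 0.027. With the replicate number as a block, the median in mismatched minus matched was 0.92, with 0 members called and 28 above 0. The labels give these numbers only as names of replicates. As a description, 5 of 18 same-number pairs had correlated deviations over 0.1 (range -0.44 to 0.31), and 1 of 12 libraries correlated best with its own number. Whether the numbers stand for a batch or a pairing was not tested. The planned pooled correlation of members had a median r of 0.76 over 12 tumours and 0.82 on deviations from group means, which the split between tumours enters.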
